A study of Danio rerio with 10 samples.

Results

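The genes of oxidative phosphorylation were followed in all 10 libraries of a study of blood cells sorted from adult zebrafish hearts. Members were taken by gene symbol. The mitochondrial part held the 13 protein-coding genes of the mitochondrial genome. The nuclear part held 96 genes for subunits of the respiratory complexes and the ATP synthase, with assembly factors left out. Together these were 109 of the 32520 gene identifiers in the count tables. By complex, the nuclear part had 42 genes of complex I, 5 of complex II, 8 of complex III, 21 of complex IV and 20 of complex V, and the mitochondrial part had 7, 0, 1, 3 and 2. Counts were present in all 10 libraries for 105 members. NDUFB4 and ndufa4l2b had no count in any library, and NDUFS1, a core subunit of complex I, had at most 3 counts per library, so these identifiers say nothing of the level of those subunits.

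Oxidative phosphorylation takes electrons from NADH at complex I and from succinate at complex II, passes them through complex III and cytochrome c to complex IV, which reduces oxygen, and uses the proton gradient made on the way to drive the ATP synthase, complex V. Complexes I, III, IV and V mix subunits encoded in the mitochondrial genome with subunits encoded in the nucleus, while complex II is entirely nuclear. Mitochondrial genes are transcribed as long precursors that are cut into separate RNAs, whereas each nuclear gene has its own promoter. Cardiomyocytes hold very many mitochondria, so their RNA is rich in both parts.

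One experiment sorted eGFP-positive cells from injured Tg(CD41.eGFP) hearts. CD41, the product of itga2b, marks thrombocytes, the nucleated platelets of fish. It compared wild-type fish (3 libraries) with fish heterozygous for the clofv087b allele of the cloche locus, where npas4l lies, called clo/+ here (3 libraries). The sample labels place these hearts at 1 day after amputation and the series description at 3 days. The other experiment sorted DsRed-positive cells from Tg(gata1a:DsRed) hearts at 7 days after 4-HT treatment, which all 4 of its libraries received. It compared 2 control libraries with 2 libraries labelled Npas4l OE. Control replicate 2 carries the transgene Tg(ubi:loxp-eGFP-stop-loxp-Npas4l) alone, and the Npas4l OE fish carry the same transgene together with gata1a:Cre-ERT2, a recombinase driven by the gata1a promoter that is meant to switch npas4l on. Control replicate 1 carries the clofv087b/+ genotype label instead and was kept with its title. Every library came from 15 pooled ventricles and 6000 sorted cells. All are labelled as platelets, and nothing in the labels ties the libraries of a group to separate batches of fish, so the tests measure only the spread between these pools.

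Gene counts per library ranged from 6764258 to 13067068. The targeted gene, npas4l, had 6, 33 and 14 counts in wild type against 14, 17 and 32 in clo/+. Control libraries held 344 and 230 of its counts, those labelled Npas4l OE 451 and 265. Its ranges overlapped in both comparisons, so directions below follow the titles. All 13 thrombocyte marker genes had counts in every library. So did 16 of the 24 cardiomyocyte marker genes, whose summed level ran from 25715 to 45440 counts per 1e6 gene counts (CPM, scaled by trimmed-mean factors) in wild type, from 30501 to 48044 in clo/+, from 62474 to 73012 in the controls and from 36752 to 37313 in Npas4l OE. One cardiomyocyte gene of the list, TNNI1_ENSDARG00000000474, had no count in any library.

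Of the reads assigned to genes, 7.50% to 11.9% fell on the mitochondrial part and 1.77% to 2.79% on the nuclear part. The mitochondrial share was 10.7%, 10.95% and 9.60% in the wild-type libraries and 9.57%, 8.79% and 11.7% in clo/+. It was 10.6% and 11.9% in the controls and 7.50% and 8.17% in Npas4l OE. Both Npas4l OE libraries thus lay below every other library, while the wild-type and clo/+ ranges overlapped. The nuclear share was 2.32%, 2.02% and 2.73% in wild type, 2.67%, 2.096% and 2.79% in clo/+, 2.39% and 2.70% in the controls and 1.77% and 1.90% in Npas4l OE. Here too both Npas4l OE libraries lay below every other library. As group means, the mitochondrial share was 10.4% ± 0.712 in wild type and 10.04% ± 1.53 in clo/+ (SD, n = 3 each), and 11.3% ± 0.908 in the controls and 7.83% ± 0.474 in Npas4l OE (SD, n = 2 each). These are shares of reads and depend on transcript length, so they do not compare numbers of molecules between the parts.

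**Figure D1:**
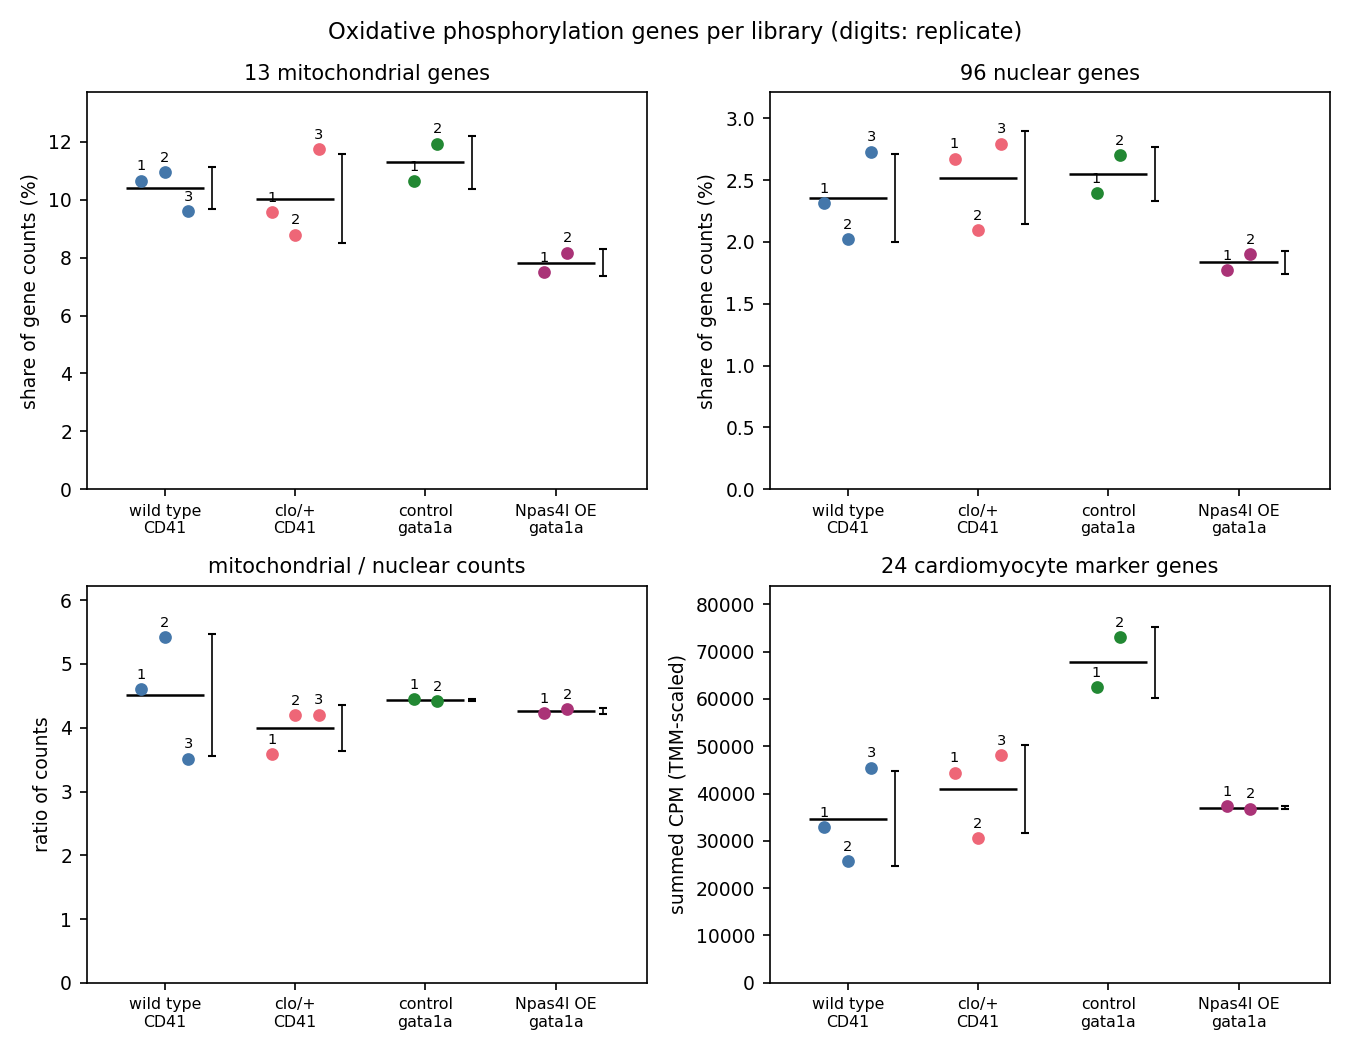
Share of gene counts (%) taken by the mitochondrial and the nuclear genes, the ratio of their counts, and the summed CPM of 24 cardiomyocyte marker genes, in each of the 10 libraries. Points are libraries with their replicate number, lines are group means and bars are SD; the 2 Npas4l OE libraries lie lowest for both parts, while the ratio stays from 3.51 to 5.42.

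The ratio of mitochondrial to nuclear counts separated the CD41 libraries more than the gata1a libraries. It was 4.61, 5.42 and 3.51 in wild type and 3.58, 4.20 and 4.21 in clo/+. In the gata1a experiment it was 4.45 and 4.42 in the controls and 4.23 and 4.29 in Npas4l OE. The controls lay above Npas4l OE without overlap, but the means of 4.43 ± 0.0218 and 4.26 ± 0.0425 (SD, n = 2 each) were close. Both parts were therefore lower by nearly the same factor in Npas4l OE, with a log2 ratio of mean shares of -0.53 for the mitochondrial and -0.47 for the nuclear part. In the CD41 experiment the parts ordered the libraries differently. By nuclear share the 6 libraries ran from wild type 2 through clo/+ 2, wild type 1, clo/+ 1 and wild type 3 to clo/+ 3, and by the summed cardiomyocyte markers they ran in the same order. The share is unscaled, whereas the sum is scaled by trimmed-mean factors. By the mean log2 CPM of nuclear members relative to all 10 libraries, which is scaled too, the order differed. Wild type 3 was highest at 0.32, before clo/+ 1 at 0.27 and clo/+ 3 at 0.14. The lowest was clo/+ 2 at -0.20, before wild type 2 at -0.11. By mitochondrial share the lowest were clo/+ 2, clo/+ 1 and wild type 3 and the highest was clo/+ 3. Over all 10 libraries the nuclear share and the cardiomyocyte sum ran in different orders. Npas4l OE had the lowest nuclear shares but not the lowest sums, at 37313 and 36752 CPM. Wild type 1, wild type 2 and clo/+ 2 had sums of 32900, 25715 and 30501 CPM. Both controls had the highest sums, at 62474 and 73012 CPM, with nuclear shares below those of wild type 3 and clo/+ 3. The part of cardiomyocyte RNA in these differences was not tested. In bulk samples, fewer cells of a type and less RNA per cell cannot be told apart.

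Npas4l overexpression against control was tested gene by gene in gata1a-sorted cells. Nearly the whole set lay lower in Npas4l OE: 103 of the 104 members tested had a negative log2 fold change, and for 100 of them both Npas4l OE libraries lay below both controls. Over all 14006 genes tested, 50.6% had a negative and 49.4% a positive log2 fold change, and 24.1% lay apart in the lower direction. With 1 library left out, 101 to 104 members were lower. The median log2 fold change was -0.72 over the 13 mitochondrial members and -0.70 over 91 nuclear members, against -0.010 over all genes. Member by member, the Npas4l OE mean was 40.1% to 71.8% of the control mean in the mitochondrial part, with a median of 61.0%, and the median was 61.8% in the nuclear part. The exception was UQCRB, at 8 to 21 counts per library in this experiment, with a log2 fold change of 0.46.

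No member had a Benjamini-Hochberg adjusted p under 0.05 in this comparison (edgeR, quasi-likelihood), where 0.0357% of all genes did, and the smallest adjusted p of a member was 0.0705. At an unadjusted p under 0.05, 80 of the 104 members were lower, 12 mitochondrial and 68 nuclear, and 0 were higher, where 9.36% of all genes were lower and 6.11% higher. DESeq2 called 35 of 104 members, all lower, where it called 1.94% of all genes lower. With 2 libraries a group, single libraries decided these counts. Without control replicate 1, the library whose genotype label differs, 61 of 105 members were called lower, where 4.4% of all genes were, and without control replicate 2 there were 11 of 104, where 0.688% were. Without Npas4l OE replicate 1 or replicate 2 no member was called, where 0.254% and 1.44% of all genes were called lower. In those fits 5 and 23 of 105 members were lower at an unadjusted p under 0.05, where 4.02% and 7.46% of all genes were, so without replicate 1 the members' share was near that of all genes. In these fits the lone library of a group is assumed to vary like the others.

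Scaling moved these values. With library size as the only scaling, the median over all genes was 0.18 in Npas4l OE, and the medians of the members were -0.53 (mitochondrial) and -0.51 (nuclear), with 100 of 104 members lower, where 38.4% of all genes were, and 57 lower at an unadjusted p under 0.05, where 5.36% were. The marker gene values that follow are from the main fit with trimmed-mean factors. They compare with the member medians of that fit given above, and not with the library-size values. In the main fit 16 of 19 tested cardiomyocyte genes were lower (median log2 fold change -0.85). So were 12 of 12 erythroid genes (-1.38) and 13 of 15 macrophage genes (-1.65), while 10 of 13 thrombocyte genes were higher (0.21). The summed cardiomyocyte level was 67743 ± 7452 CPM in the controls and 37032 ± 397 CPM in Npas4l OE (SD, n = 2 each). The part of other cell types in the lower member values was not tested.

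**Figure D2:**
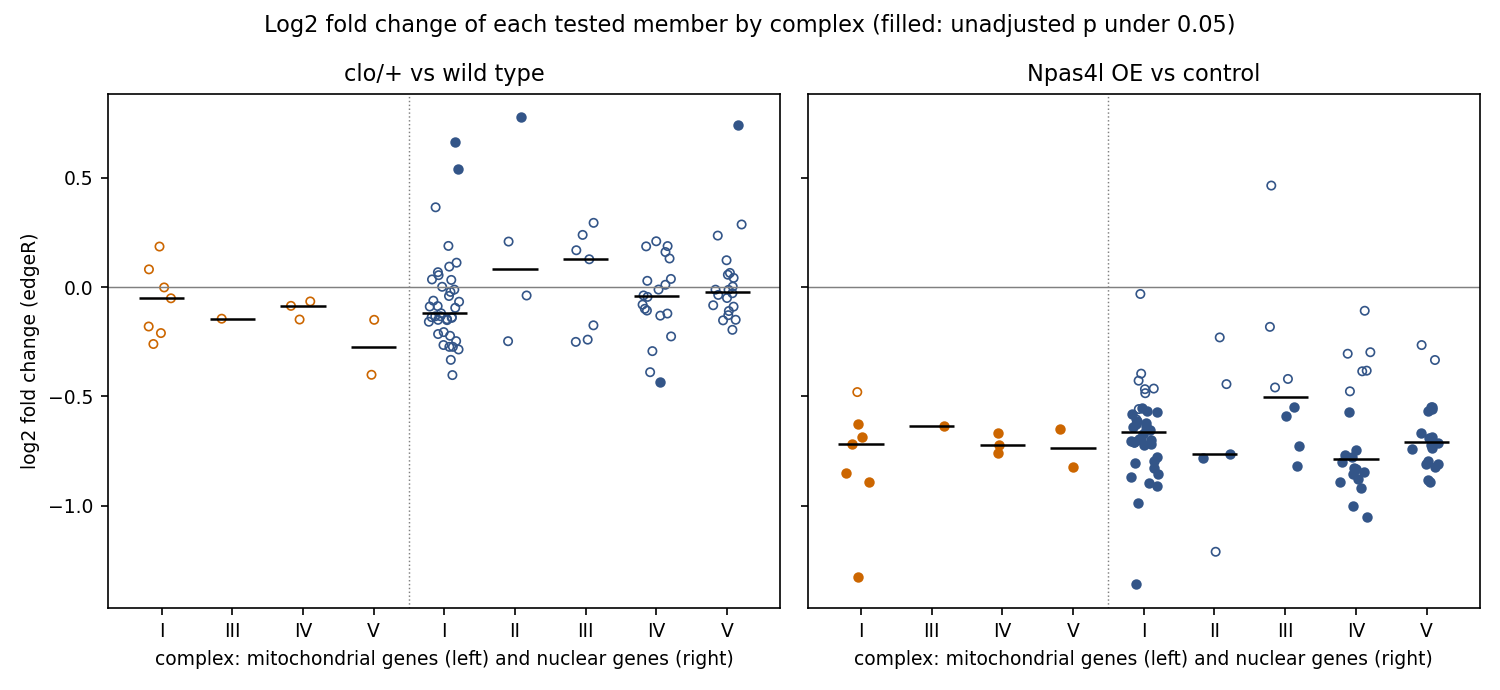
Log2 fold change of every tested member, by complex, for clo/+ against wild type (left) and Npas4l OE against control (right). Orange points are mitochondrial genes, blue points nuclear genes, filled points have an unadjusted p under 0.05 and lines are medians; the clo/+ values lie around 0, and 103 of the 104 Npas4l OE values lie below it.

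All 13 mitochondrial genes lay lower in Npas4l OE than in the controls, with no overlap, and none passed the adjusted test. MT-CO1, the catalytic subunit of complex IV that holds its oxygen-binding site, was at 39039 and 40525 CPM in the controls and at 24543 and 23870 CPM in Npas4l OE. Its controls were also above the wild-type values of 30502, 29765 and 29149 CPM and the clo/+ values of 28442, 26060 and 30947 CPM. In Npas4l OE its log2 fold change was -0.72 (SE 0.17; edgeR adjusted p 0.130). The other complex IV genes were close to it. MT-CO2, which takes electrons from cytochrome c, was at 18882 and 23409 CPM in the controls and 11910 and 13176 CPM in Npas4l OE, and MT-CO3, a structural core subunit, at 19065 and 21047 against 11998 and 13327 CPM. Their log2 fold changes were -0.76 and -0.67. MT-CYB, the one complex III subunit of the mitochondrial genome, was at 16244 and 15453 CPM in the controls and 9531 and 10935 CPM in Npas4l OE, or -0.63 on the log2 scale (SE 0.18; edgeR adjusted p 0.168).

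Among the 7 complex I genes the log2 fold change ran from -1.33 for MT-ND6 to -0.48 for mt-nd4l, with MT-ND1 at -0.63, MT-ND3 at -0.69, MT-ND4 at -0.72, MT-ND2 at -0.85 and MT-ND5 at -0.89. MT-ND4, in the membrane arm that pumps protons, was at 4717 and 5928 CPM in the controls and 3156 and 3335 CPM in Npas4l OE. In complex V, MT-ATP6, part of the proton channel, stood at -0.82 on the log2 scale (SE 0.22) and mt-atp8, its small partner, at -0.65, with edgeR adjusted p of 0.153 and 0.237. MT-ATP6 was at 5365 and 7570 CPM in the controls against 3343 and 3987 CPM in Npas4l OE. The genes of mt-atp8 and MT-ATP6, and of mt-nd4l and MT-ND4, overlap in vertebrate mitochondrial genomes, and the summary lines of the files set reads that fall on several genes aside, so the levels of the small members are uncertain.

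MT-ND6 stood apart from the other mitochondrial genes. It is the one protein gene read from the light strand of the vertebrate mitochondrial genome. It was at 237 CPM in control replicate 1 and 660 CPM in control replicate 2, a gap that no other mitochondrial gene showed. It was at 164 and 196 CPM in Npas4l OE, at 356, 399 and 376 CPM in wild type and at 429, 289 and 568 CPM in clo/+. As a share of the mitochondrial counts of a library it was 0.209% and 0.523% in the controls, 0.232% and 0.259% in Npas4l OE, 0.332% to 0.372% in wild type and 0.340% to 0.512% in clo/+. Its log2 fold change in Npas4l OE of -1.33 (SE 0.39, edgeR adjusted p 0.176) was -1.88 without control replicate 1 and -0.39 without control replicate 2. The strand setting of the counting is not given in the sources used here, so reads from MT-ND6 and from the opposite strand may not be told apart.

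**Figure D3:**
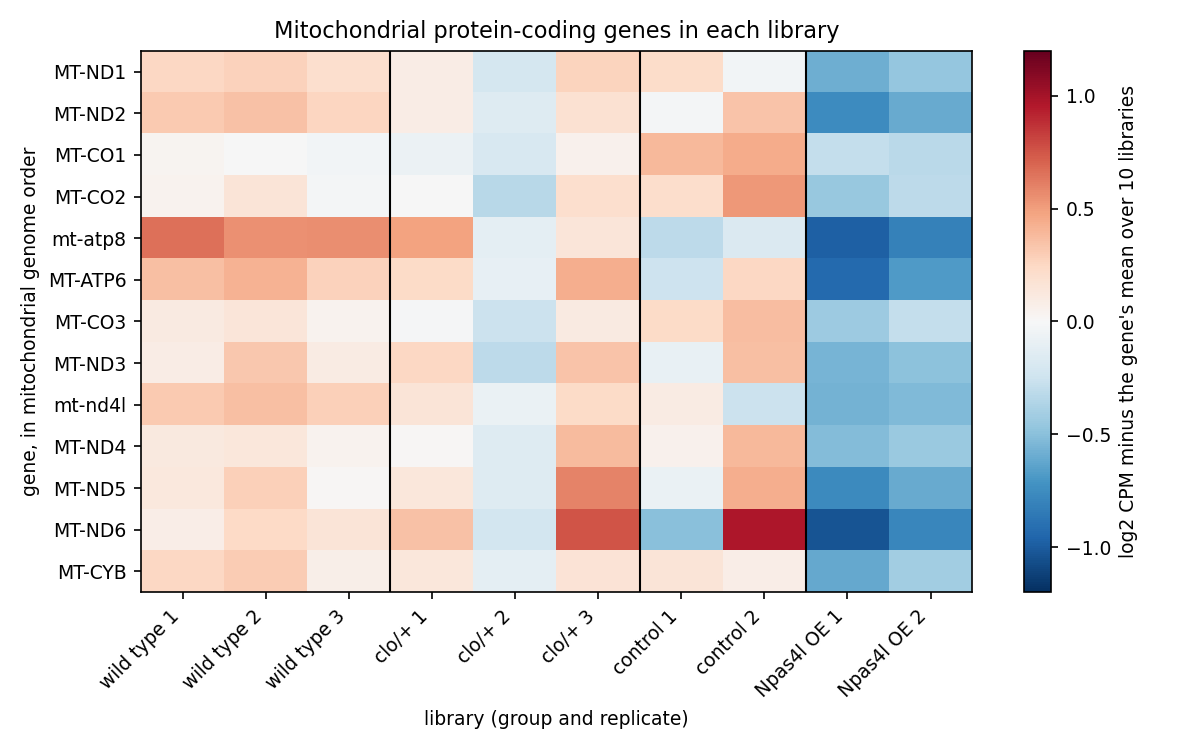
Log2 CPM of the 13 mitochondrial protein-coding genes in each library, minus the gene's mean over the 10 libraries, in genome order (RefSeq, assembly GRCz12tu). Columns are libraries, black lines divide the groups, red is above and blue below the mean; the 2 Npas4l OE columns are blue for every gene, and MT-ND6 differs most between the 2 controls.

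The nuclear members were lower in Npas4l OE across all complexes. The medians of the log2 fold change were -0.66 for complex I (38 tested), -0.76 for complex II (5), -0.50 for complex III (8), -0.79 for complex IV (20) and -0.71 for complex V (20). Members at an unadjusted p under 0.05 numbered 30, 2, 4, 14 and 18, all lower, where 9.36% of all genes were lower. The member with the smallest p was ndufa4b, a copy of NDUFA4, which was first named as a complex I subunit and in mammals sits in complex IV. It was at 319 and 398 CPM in the controls and 133 and 147 CPM in Npas4l OE, whereas it was at 324, 311 and 421 CPM in wild type and 355, 260 and 432 CPM in clo/+, so both Npas4l OE libraries lay below all 8 others. Its log2 fold change was -1.36 (SE 0.22; edgeR adjusted p 0.0705). By its name it is counted here with complex I. It was called in 8 of 13 alternative fits, over which the adjusted p of edgeR, DESeq2 or limma ranged from 1.52e-05 to 0.382.

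Further members with the smallest p came from several complexes. In complex I, ndufa11, an accessory subunit of the membrane arm, was at 225 and 250 CPM in the controls and 125 and 129 CPM in Npas4l OE, and NDUFB5, another accessory subunit of that arm, at 139 and 157 against 64.6 and 85.1 CPM. NDUFS4, an accessory subunit near the site of NADH oxidation, was at 122 and 128 CPM against 68.2 and 68.6 CPM. None of these groups overlapped. In complex IV, cox5aa was at 589 and 626 CPM in the controls and 345 and 339 CPM in Npas4l OE, and COX5B_ENSDARG00000068738 at 450 and 558 against 267 and 267 CPM. The log2 fold changes were -0.91 (ndufa11), -0.99 (NDUFB5), -0.87 (NDUFS4), -0.83 (cox5aa) and -0.92 (COX5B_ENSDARG00000068738), with edgeR adjusted p from 0.127 to 0.135. In complex V, atp5mc1, a gene of the c ring that turns as protons pass, was at 651 and 685 CPM in the controls and 362 and 395 CPM in Npas4l OE, a log2 fold change of -0.82 (SE 0.20, edgeR adjusted p 0.130).

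A few large catalytic subunits had values nearer to 0. SDHA, the flavoprotein of complex II that oxidizes succinate, was at 203 and 210 CPM in the controls and 175 and 177 CPM in Npas4l OE, a log2 fold change of -0.23 (SE 0.21). ATP5F1A and ATP5F1B, the subunits that form the catalytic head of the ATP synthase, had log2 fold changes of -0.27 and -0.33. The edgeR adjusted p of these genes were 0.644, 0.562 and 0.447. By contrast SDHC, a membrane anchor of complex II, was at 220 and 239 CPM in the controls and 139 and 132 CPM in Npas4l OE, a log2 fold change of -0.76 (SE 0.21, edgeR adjusted p 0.158).

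**Figure D4:**
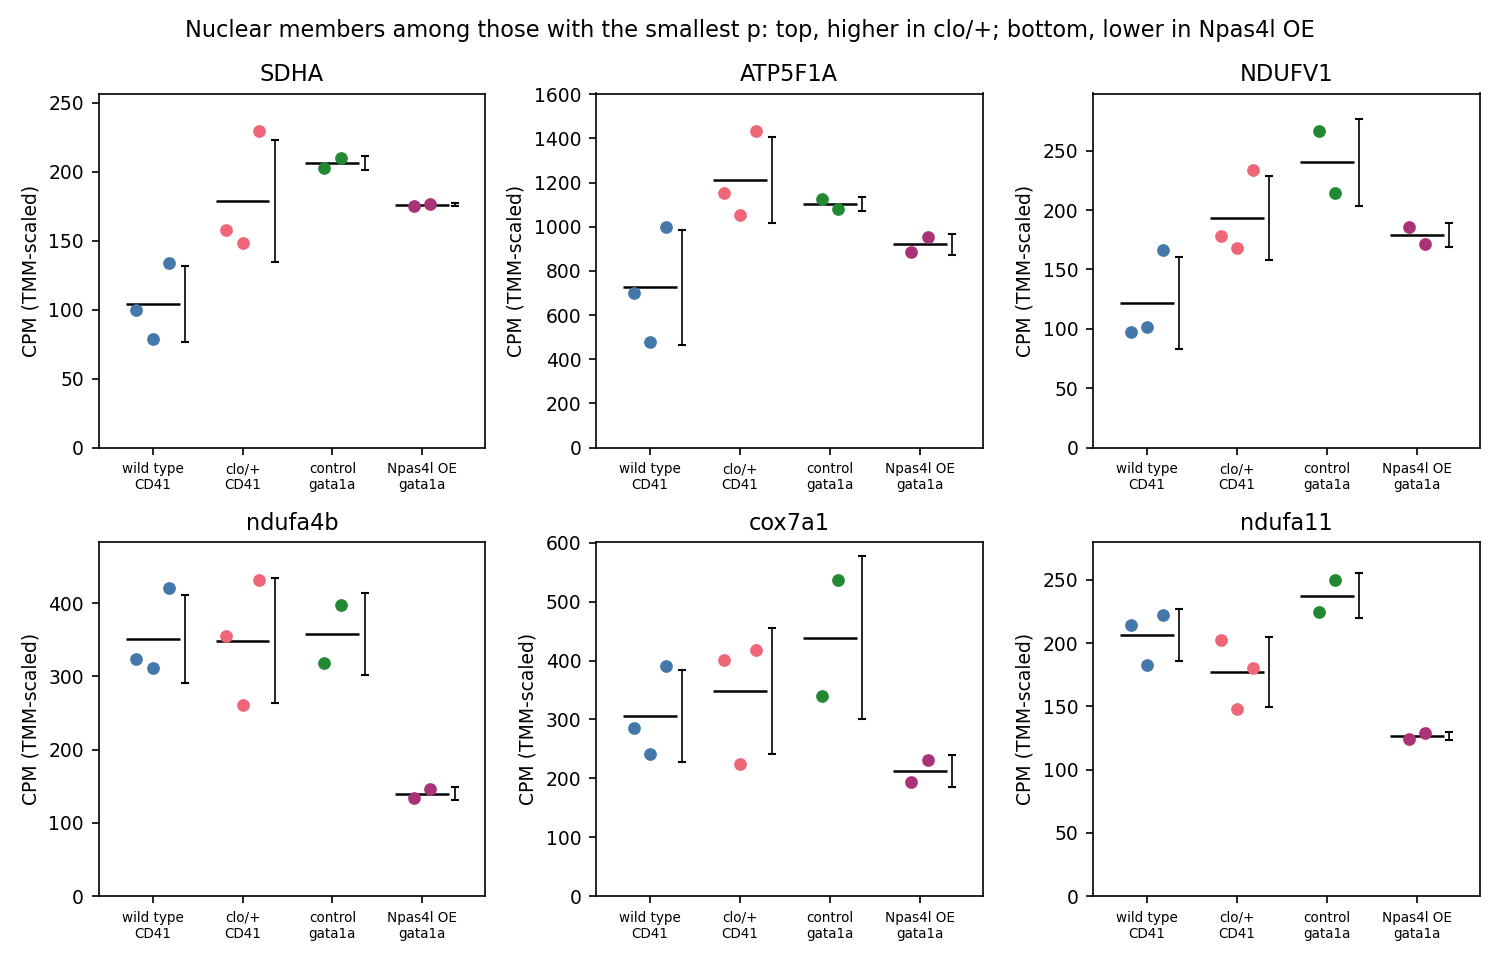
CPM of 6 nuclear members in each library. Points are libraries, lines are group means and bars are SD; the top row shows SDHA, ATP5F1A and NDUFV1, for which the 3 clo/+ libraries lie above the 3 wild-type libraries, and the bottom row shows ndufa4b, cox7a1 and ndufa11, for which the 2 Npas4l OE libraries lie below the 2 controls.

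Several subunits are encoded by pairs of related genes. In mammals COX7A1 and COX8B are the isoforms of heart and skeletal muscle, while COX7A2 and COX8A are found in most tissues. The muscle-type gene cox7a1 was at 341 and 537 CPM in the controls and 194 and 231 CPM in Npas4l OE (SE of its log2 fold change 0.26, edgeR adjusted p 0.131). Within some such pairs the log2 fold change in Npas4l OE was further below 0 for 1 gene. This held for cox7a1 (-1.05) against COX7A2_ENSDARG00000053217 (-0.39), and for cox8b (-0.89) against cox8a (-0.30). It was likewise -0.92 for COX5B_ENSDARG00000068738 and -0.31 for COX5B_ENSDARG00000015978, -0.83 for cox5aa and -0.38 for COX5A, -0.86 for COX6A1_ENSDARG00000054588 and -0.11 for cox6a1_ENSDARG00000022438, -0.89 for atp5if1b and -0.56 for atp5if1a, which encode copies of an inhibitor of the ATP synthase, and -1.36 for ndufa4b and -0.79 for NDUFA4. The cox6b pair had closer values, -0.75 for cox6b1 and -0.77 for cox6b2. The differences within pairs were not tested.

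As shares of a pair's counts, cox7a1 took 73.7% and 81.8% in the controls and 68.4% and 70.7% in Npas4l OE, and cox8b took 82.5% and 88.9% against 81.7% and 79.4%. ndufa4b took 26.4% and 24.9% of its pair in the controls and 18.2% and 19.4% in Npas4l OE. In each of these pairs the groups did not overlap. The same held for COX6A1_ENSDARG00000054588, COX5B_ENSDARG00000068738, cox5aa and atp5if1b in their pairs. The groups overlapped for cox4i1l with COX4I1, at 47.3% and 49.5% in the controls against 46.9% and 48.4% in Npas4l OE. They also overlapped for COX4I2, cox6b2, atp5mc3b and ndufa9b in their pairs. By level, 24.1% of all genes lay apart in the lower direction, and no such background was computed for shares. In the CD41 libraries cox7a1 took 60.4%, 55.4% and 66.6% in wild type and 72.5%, 62.5% and 74.9% in clo/+, and cox8b took 72.1%, 67.3% and 74.2% against 77.0%, 72.8% and 86.1%. Here the groups overlapped in both pairs. Paralogues can lose reads that align to both copies, and 9 members share a symbol with another identifier, so the shares are uncertain in level.

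**Figure D5:**
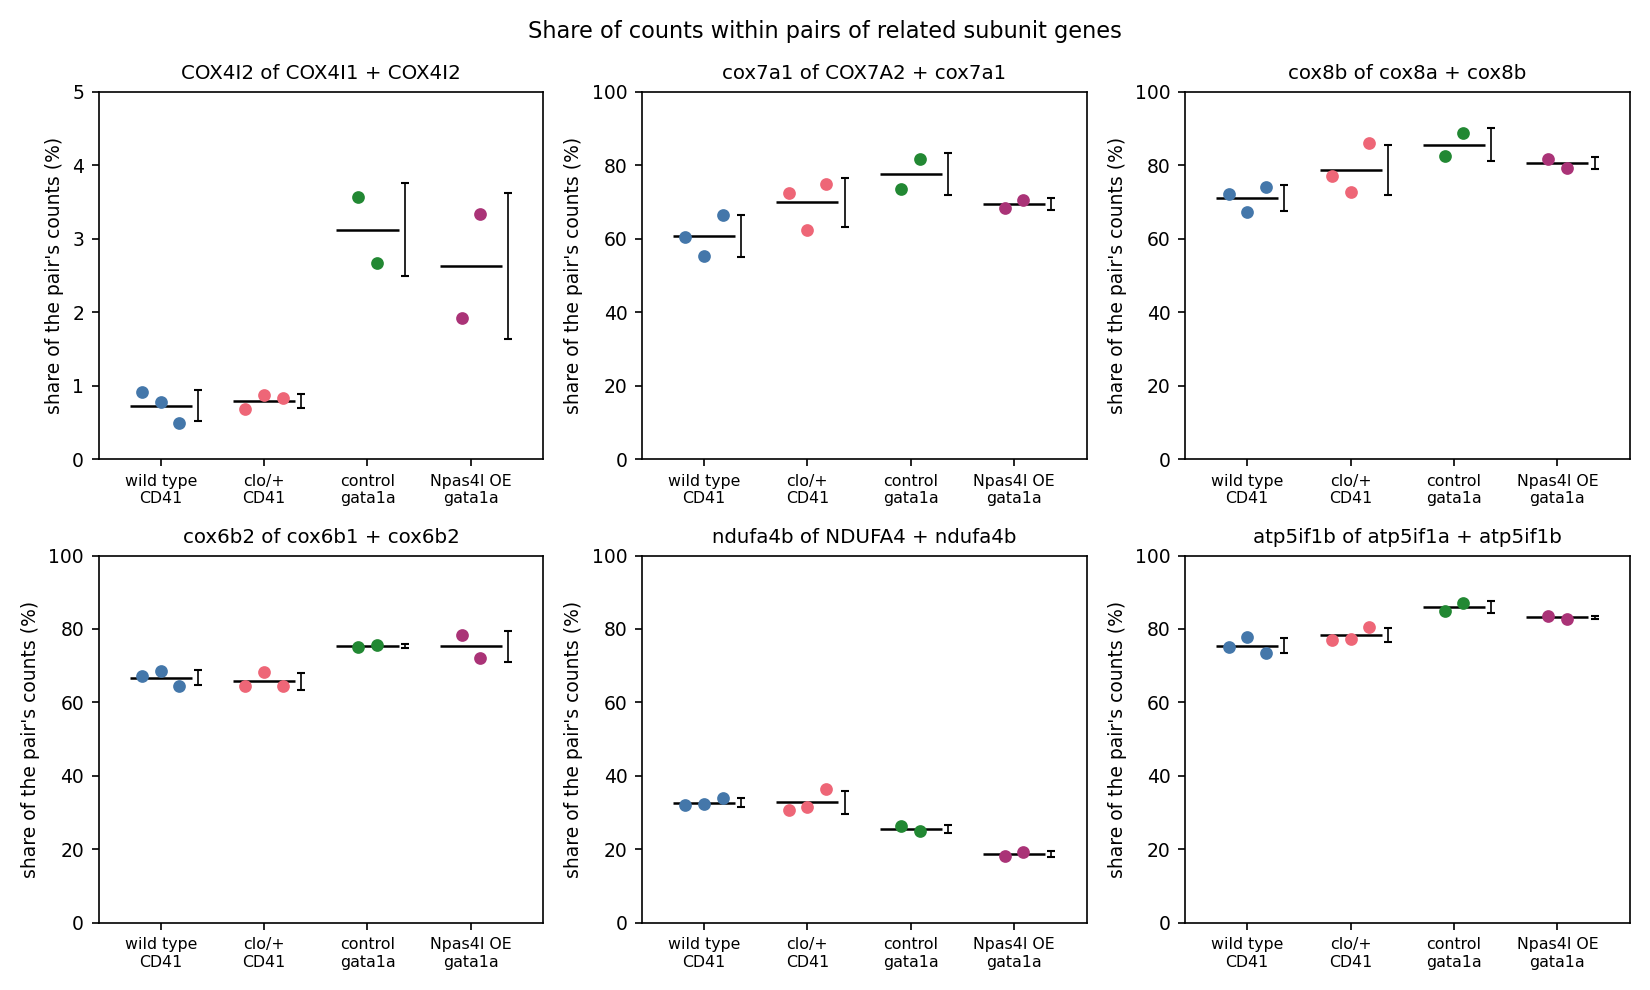
Share (%) of the counts of a pair of related subunit genes that the named gene took in each library; the axis of the COX4I2 panel ends at 5%, the others at 100%. Points are libraries, lines are group means and bars are SD; ndufa4b and cox7a1 have lower shares in both Npas4l OE libraries than in both controls, and COX4I2 has a higher share in all 4 gata1a libraries than in the 6 CD41 libraries.

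The comparison of clo/+ with wild type in CD41-sorted cells gave values around 0 for most members. The median log2 fold change was -0.14 over the 13 mitochondrial members and -0.056 over 90 nuclear members tested, against -0.0021 over all 13749 genes. Of 103 members tested, 35 were higher and 68 lower, where 49.8% of all genes were higher and 50.2% lower. No member had an adjusted p under 0.05 by edgeR, where 0.0145% of all genes did, and DESeq2 called 0 as well. At an unadjusted p under 0.05 there were 4 members higher and 1 lower, where 7.19% of all genes were higher and 4.79% lower, or 12% in all. Without wild-type replicate 1 or 2 there were 2 such members, where 8.77% and 8.29% of all genes were, and without clo/+ replicate 1 there were 8, where 12% were. The groups lay apart for 4 members in each direction, where 9.24% of all genes were higher and 9.02% lower in this way. The nuclear median was 0.082 when wild-type replicate 3 was left out and 0.10 when clo/+ replicate 2 was, so its sign rested on single libraries. The mitochondrial median stayed negative in these fits, from -0.22 to -0.017, with the value nearest 0 without clo/+ replicate 2.

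Among mitochondrial genes, mt-atp8 had the lowest log2 fold change in clo/+, -0.40 (SE 0.21, edgeR adjusted p 0.457), at 138, 127 and 128 CPM in the wild-type libraries against 122, 80.2 and 96.2 CPM in clo/+. The 2 mitochondrial members with a value above 0 were MT-ND5 (0.081) and MT-ND6 (0.19), and both were below 0 without clo/+ replicate 3. MT-CO1 was at -0.066 (SE 0.24) and MT-CYB at -0.14 (SE 0.24), each with overlapping groups.

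The members higher in clo/+ with an unadjusted p under 0.05 were nuclear genes, among them 3 for catalytic or core subunits. SDHA was at 99.97, 78.7 and 133 CPM in the wild-type libraries against 158, 148 and 229 CPM in clo/+, a log2 fold change of 0.78 (SE 0.24, edgeR adjusted p 0.229). ATP5F1A was at 699.9, 479 and 999 CPM in the wild-type libraries against 1152, 1054 and 1432 CPM in clo/+, a log2 fold change of 0.74 (SE 0.26, edgeR adjusted p 0.271). For these genes each clo/+ library lay above each wild-type library. NDUFV1, the complex I subunit that binds NADH, was at 97.3, 102 and 166 CPM against 178, 168 and 234 CPM. Its log2 fold change was 0.67, with an edgeR adjusted p of 0.280, and the groups again lay apart. Leaving out 1 library at a time kept these 3 genes above 0: SDHA ranged from 0.56 to 1.01, ATP5F1A from 0.51 to 1.05 and NDUFV1 from 0.50 to 0.97. The lower one was COX7A2_ENSDARG00000053217, at 187, 194 and 197 CPM in the wild-type libraries against 152, 135 and 140 CPM in clo/+, a log2 fold change of -0.43 (SE 0.20, edgeR adjusted p 0.387).

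The next members in order of p were smaller in effect. Among those higher in clo/+, NDUFS8, an iron-sulfur core subunit of complex I, had a log2 fold change of 0.36, ATP5F1B one of 0.29 and the complex III core genes uqcrc2a and UQCRC1 ones of 0.29 and 0.24. These rested on single libraries: without wild-type replicate 2 uqcrc2a was at 0.0080, UQCRC1 at 0.048 and ATP5F1B at 0.13, without wild-type replicate 3 they were at 0.69, 0.49 and 0.50, and NDUFS8 ranged from 0.13 without clo/+ replicate 3 to 0.60 without wild-type replicate 2. Among those lower, ndufa7, an accessory complex I subunit, was at 73.8, 74.03 and 86.2 CPM in the wild-type libraries against 74.1, 52.2 and 50.6 CPM in clo/+, or -0.40 on the log2 scale, and cox8a was at -0.39. NDUFB6, NDUFB9, NDUFB2 and NDUFA12, accessory subunits of complex I, and cox6a1_ENSDARG00000022438 lay between -0.33 and -0.27. The groups overlapped for every gene of this paragraph, and none had an unadjusted p under 0.05.

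The summed cardiomyocyte level averaged 34685 ± 9983 CPM for wild type and 40987 ± 9260 CPM for clo/+ (SD, n = 3 each), with overlapping ranges. In clo/+, 13 of 19 tested cardiomyocyte genes were higher (median log2 fold change 0.12), as were 15 of 16 macrophage genes (0.37) and 6 of 12 erythroid genes (0.081), and 10 of 13 thrombocyte genes were lower (-0.35). The summed macrophage level ran from 425 to 459 CPM in wild type and from 551 to 567 CPM in clo/+, without overlap. The part of cell composition in the SDHA, ATP5F1A and NDUFV1 values was not tested.

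The 2 effects were set against each other in one fit of all 10 libraries. The Npas4l OE effect was below the clo/+ effect for 101 of 105 members, with a median difference of -0.63 over the mitochondrial and -0.64 over the nuclear members, against -0.017 over all 15380 genes, of which 50.9% were below and 49.1% above 0. No member had an adjusted p under 0.05 for this difference by edgeR, where 0.774% of all genes did, and limma-voom called 0. At an unadjusted p under 0.05, 43 members were lower (3 mitochondrial and 40 nuclear) and 0 higher, where 9.45% of all genes were lower and 5.84% higher. That number was 22, 19 and 53 without wild-type replicates 1, 2 and 3, and 20, 63 and 40 without clo/+ replicates 1, 2 and 3. In these fits 7.22% to 10.6% of all genes were lower at that threshold. Without a control or an Npas4l OE library, 1 was left in its group, so the number at that threshold is not given for these fits. In them the difference was below 0 for 101 to 104 members, where 49% to 53.6% of all genes were. With library size as the only scaling 19 members were lower at an unadjusted p under 0.05, where 7.25% of all genes were. The smallest adjusted p was that of ndufa4b, 0.0771 by edgeR, with a difference of -1.34 (SE 0.35).

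Controls of the gata1a experiment were also compared with wild type of the CD41 experiment, where reporter, injury, treatment and experiment cannot be told apart. These control libraries are also the reference of the Npas4l OE comparison. The median log2 difference was -0.020 over mitochondrial and 0.087 over nuclear members, with 60 members higher and 45 lower, where 50.9% of all genes were higher and 49.1% lower. By edgeR, 11 of 105 members passed the adjusted test, or 6 higher and 5 lower in the controls, where 20.4% of all genes passed. COX4I2, in mammals an isoform of the regulatory subunit 4 that is induced by low oxygen and abundant in lung, had the smallest p. It was at 6.55, 5.14 and 4.46 CPM in the wild-type libraries and at 27.7 and 25.9 CPM in the controls, a log2 difference of 2.32 (SE 0.33, edgeR adjusted p 0.000108). The clo/+ libraries, from 5.34 to 6.31 CPM, lay within the wild-type range, and Npas4l OE, at 9.19 and 17.5 CPM, lay between wild type and control. SDHA and SDHB, the catalytic subunits of complex II, were higher by 0.99 and 0.66 on the log2 scale, NDUFV1 by 0.98 and COX5B_ENSDARG00000068738 by 0.79, with edgeR adjusted p of 0.00876, 0.0407, 0.00994 and 0.0375.

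The lower members held both COX7A2 copies and cox8a. COX7A2_ENSDARG00000053217 was at 192.6 ± 4.99 CPM in wild type (SD, n = 3) and 120.8 ± 1.37 CPM in the controls (SD, n = 2), a log2 difference of -0.67 (SE 0.20, edgeR adjusted p 0.0247). COX7A2_ENSDARG00000110700 had -1.13 (edgeR adjusted p 0.00433), cox8a -0.73 (0.0489 by edgeR) and mt-atp8 -0.83 (0.0140 by edgeR). The remaining called members had few reads: NDUFA4L2 was at 7.29, 6.12 and 1.26 CPM in wild type and 0.857 and 0.399 CPM in the controls, and SDHD_ENSDARG00000055712 had 0, 6 and 1 counts in wild type and 22 and 22 in the controls. Without any 1 of wild-type replicates 1 and 2 or control replicates 1 and 2, the number of called members was 4, 5, 5 and 4, where 15.9%, 14.4%, 13.9% and 10.9% of all genes were called. In this contrast 16 of 20 cardiomyocyte genes (median 0.70) and 13 of 16 macrophage genes (1.79) were higher and 11 of 12 erythroid genes (-2.71) lower. Their part in the member differences was not tested.

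Other genes of mitochondria and energy metabolism were read from fixed lists. In Npas4l OE the electron and nucleotide carriers were lower for 14 of 16 genes (median log2 fold change -0.69). Of these, 12 had an unadjusted p under 0.05, where 9.36% of all genes were lower at that threshold. The carriers were led by cycsb, a cytochrome c gene, at -1.03 (SE 0.20, edgeR adjusted p 0.0944), and by CKMT2_ENSDARG00000069615, a mitochondrial creatine kinase, at -0.96. The SLC25A5 gene for an ADP/ATP carrier had -0.74. The tricarboxylic acid cycle had a median of -0.49 with 18 of 20 lower, assembly factors -0.40 with 38 of 45 lower, mitochondrial ribosomal proteins -0.40 with 72 of 75 lower, import proteins -0.42 with 20 of 25 lower and glycolysis -0.32 with 20 of 27 lower. Regulators of mitochondrial DNA and biogenesis had a median of 0.26 with 14 of 21 higher. No gene of these lists had an adjusted p under 0.05 by edgeR in either experiment. For the difference of the 2 effects 1 gene passed, the assembly factor NDUFAF3, at -1.62 (SE 0.36, edgeR adjusted p 0.0440). In that fit 0.774% of all genes passed.

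In clo/+ the tricarboxylic acid cycle was higher for 20 of 20 tested genes, at a median of 0.51 on the log2 scale. Glycolysis was higher for 24 of 27, with a median of 0.45. Each list had 9 genes higher at an unadjusted p under 0.05, where 7.19% of all genes were higher. The smallest p in the cycle list were those of FH_ENSDARG00000109774, a fumarase gene, at 0.88 and PDHX, of the pyruvate dehydrogenase complex, at 0.92, with edgeR adjusted p of 0.214 and 0.233. In the glycolysis list they were those of ENO3, an enolase, at 1.05 and PFKL_ENSDARG00000060504, a phosphofructokinase, at 1.01, with edgeR adjusted p of 0.168 and 0.169. The mitochondrial ribosomal proteins had a median of -0.15 with 60 of 75 lower, and the assembly factors one of -0.035 with 26 of 46 lower. SDHA also works in the cycle, as the succinate dehydrogenase subunit.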

How the data were processed

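The authors deposited raw read counts per gene for each library; the submitters' processing notes name FastQC 0.11.4, Trim Galore 0.6.0, HISAT2 2.1.0, DESeq2 1.22.1 and the GRCz11 build, while the counter and its strand setting are not given in the sources used here. Genes took 41.0% to 49.3% of all reads, and the 5 summary lines were left out. The summary line for reads on no gene took 11.4% and 11.6% of all reads in Npas4l OE and 6.22% and 9.82% in the controls. It took 6.03% to 7.47% in the CD41 libraries. The part of this difference in the member values was not tested. Per the labels' protocols cDNA was amplified without mention of molecular identifiers. Symbols came from a table that named 29201 identifiers.

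Each experiment was fitted with edgeR 4.0.16 (R 4.3.3): filterByExpr (minimum count 10, total 15), trimmed-mean factors, the quasi-likelihood test, and Benjamini-Hochberg adjustment over all genes in the fit (called: adjusted p under 0.05). The SE of a log2 fold change is its size divided by the square root of F. CPM were scaled over all 10 libraries. DESeq2 1.42.0 and limma 3.58.1 were alternatives. Fits were tested on simulated data. Figures used matplotlib 3.10.9. Exact permutation cannot go below 0.1 for 3 against 3 libraries or 0.333 for 2 against 2. Mitochondrial members, up to 8 nuclear members per direction with the smallest p and a mean of at least 10 CPM, isoform pairs and up to 3 genes per other list were named; any other gene was picked with its values known. Members and lists were chosen with earlier results of these data known. Sequences were not used here. Values of single members that are not named are not reported here.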

Additional observations from a re-analysis of the deposited data

How the results depend on the processing

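The mitochondrial and nuclear medians kept their sign in Npas4l OE under every setting run. They moved beyond the spread between libraries with library size as the only scaling (-0.53 and -0.51), and ranged from -0.87 to -0.58 and from -0.79 to -0.59 with 1 library left out. Called members in Npas4l OE were 32 without a filter, 35 with DESeq2, 2 with the replicate block (called genes 187 there) and 1 each with limma-voom, a minimum of 10 counts per library or one fit of all 10 libraries, and from 0 to 61 with 1 library left out. All genes called in that comparison were 2 with library size only, 648 without a filter, 90 with limma-voom, 30 with a minimum of 10 counts per library, 385 with DESeq2, 110 in the fit of all 10 libraries and 52 to 1111 with 1 library left out, against 5. In clo/+ all genes called were 1 with mitochondrial genes out of the scaling, limma-voom or one fit of all 10 libraries, 4 with a minimum of 10 counts per library, 211 without a filter, 150 with DESeq2, 120 with the replicate block and 0 to 17 with 1 library left out, against 2. Members at an unadjusted p under 0.05 ranged from 2 to 8 in clo/+ and from 5 to 84 in Npas4l OE with 1 library left out. The clo/+ medians ranged from -0.22 to -0.017 (mitochondrial) and from -0.16 to 0.10 (nuclear). Members called between the sorts ranged from 4 to 11, and for the difference of the 2 effects from 0 to 1, with 3 without a filter. MT-ND4 in clo/+, at -0.0018, was 0.056 with library size only, 0.0087 without a filter, 0.0010 with RLE factors or DESeq2 and 0.017 with a minimum of 10 counts per library. With 1 library left out it ranged from -0.17 to 0.11, MT-ND3 from -0.18 to 0.13, MT-CO2 from -0.22 to 0.049, MT-ND5 from -0.15 to 0.24 and MT-ND6 from -0.074 to 0.40. The causes were not tested. Replicate numbers were not used to pair the libraries in the main fits. Same-numbered libraries correlated at -0.00084 to 0.072 in their deviations from the group means in the CD41 experiment and at 0.056 in the gata1a experiment. Deviations within a group of 2 or 3 libraries are tied to each other, so these correlations cannot decide whether libraries were paired. Depth limits the members with few counts, such as UQCRB, SDHD_ENSDARG00000055712 and NDUFA4L2; COX5B_ENSDARG00000113254, NDUFS1 and the members at 0 counts passed the count filter in no comparison.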
